A study of Mus musculus with 12 samples.

Results

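The liver transcripts of 9 mouse genes that store, oxidise, degrade or respond to vitamin A were followed in 12 poly-A RNA-seq libraries. The genes were taken by symbol: Lrat, Adh1, Adh4, Dhrs3, Aldh1a1, Aldh1a7, Cyp26a1, Cyp26b1 and Rarb. All 9 were among the 22537 genes of the count table, and all 9 were among the 13968 genes tested. The mice were female, C57BL/6, 6 months old and fed a high-fat diet over 13 weeks, with 3 in each of 4 groups. AHR KO mice had lost the aryl hydrocarbon receptor (AHR) from the liver, and AHR Flox mice carried the floxed Ahr gene as their control. ARNT KO mice had lost hepatic ARNT, the partner with which AHR binds DNA, and ARNT Flox mice were their control. All 4 groups ate the high-fat diet, so no value here is from mice on a standard diet. The sources used here do not give the recombinase that deleted each gene, the exons removed or the cells in which it acted.

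Retinoids are vitamin A and its derivatives, and the liver holds most of the body's store. LRAT esterifies retinol for storage, mainly in the lipid droplets of hepatic stellate cells, while alcohol dehydrogenases and retinal reductases move retinol and retinaldehyde in opposite directions. Aldehyde dehydrogenases oxidise retinaldehyde to retinoic acid, CYP26 enzymes clear retinoic acid, and retinoic acid receptors bound to DNA with RXR read its level. Mice that lack AHR from birth are known for changed hepatic retinoid stores, and the comparisons here set liver knockouts of AHR and of ARNT beside their floxed controls.

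Read depth ran from 23585909 to 33255004 counts per library. The lowest count of a retinoid gene in any library was 51, for Cyp26b1, so all 9 stood well above the limit that a count of 0 allows, which is 3 counts, or 0.0902 to 0.127 CPM (counts scaled by library size, as used throughout). Arnt had 25.2, 23.9 and 19.0 CPM in ARNT KO, against 47.8, 52.5 and 50.3 CPM in ARNT Flox, and fell by 1.15 on the log2 scale (adjusted p = 0.00601). Ahr had 84.4, 94.8 and 80.3 CPM in AHR KO, against 53.9, 78.8 and 72.4 CPM in AHR Flox, with no overlap and a higher level in AHR KO (log2 change 0.34, adjusted p = 0.470). A count over the whole gene does not show a deleted exon, so the AHR KO labels are used as given and were not checked by it. ARNT KO replicate 3 stood apart, at 65.3 on the first principal component (43.0% of the variance) against -30.9 to 30.3 for the other libraries, and values that rest on it are also given without it. In that library the summed level of 8 bile duct markers was 330 CPM, against 64.7 to 135 CPM elsewhere. Albumin (Alb) was at 5740.3 CPM in it, against 51926 to 87894 CPM in the other ARNT libraries, and at 5491 to 7089 CPM in AHR KO, against 78433 to 89275 CPM in AHR Flox. The other 9 hepatocyte markers summed to 29741 CPM in ARNT KO replicate 3 and 29945 to 43716 CPM elsewhere, and to 38612 to 43716 CPM in AHR KO and 34479.5 to 38782 CPM in AHR Flox. Whether these differences bear on the retinoid genes was not tested.

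Per kilobase of annotated exon, Adh1 was the most abundant of the 9 transcripts in every library, at 1045 to 1929 CPM per kb. Aldh1a1 came next at 117 to 299.7 CPM per kb. Aldh1a7 (37.9 to 113 CPM per kb), Adh4 (28.1 to 68.5) and Dhrs3 (30.8 to 59.8) overlapped each other in range. Lrat (3.87 to 7.63 CPM per kb) and Cyp26a1 (1.73 to 11.8) overlapped in the same way. Rarb (1.15 to 1.87 CPM per kb) and Cyp26b1 (0.284 to 3.13) were the scarcest. The genes that oxidise retinol and retinaldehyde were thus far more abundant than those that store retinol, degrade retinoic acid or receive its signal. The CYP26 genes varied most between libraries: the highest library exceeded the lowest 11.03-fold for Cyp26b1 and 6.81-fold for Cyp26a1, against 1.63-fold for Rarb and 1.85-fold for Adh1.

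**Figure D1:**
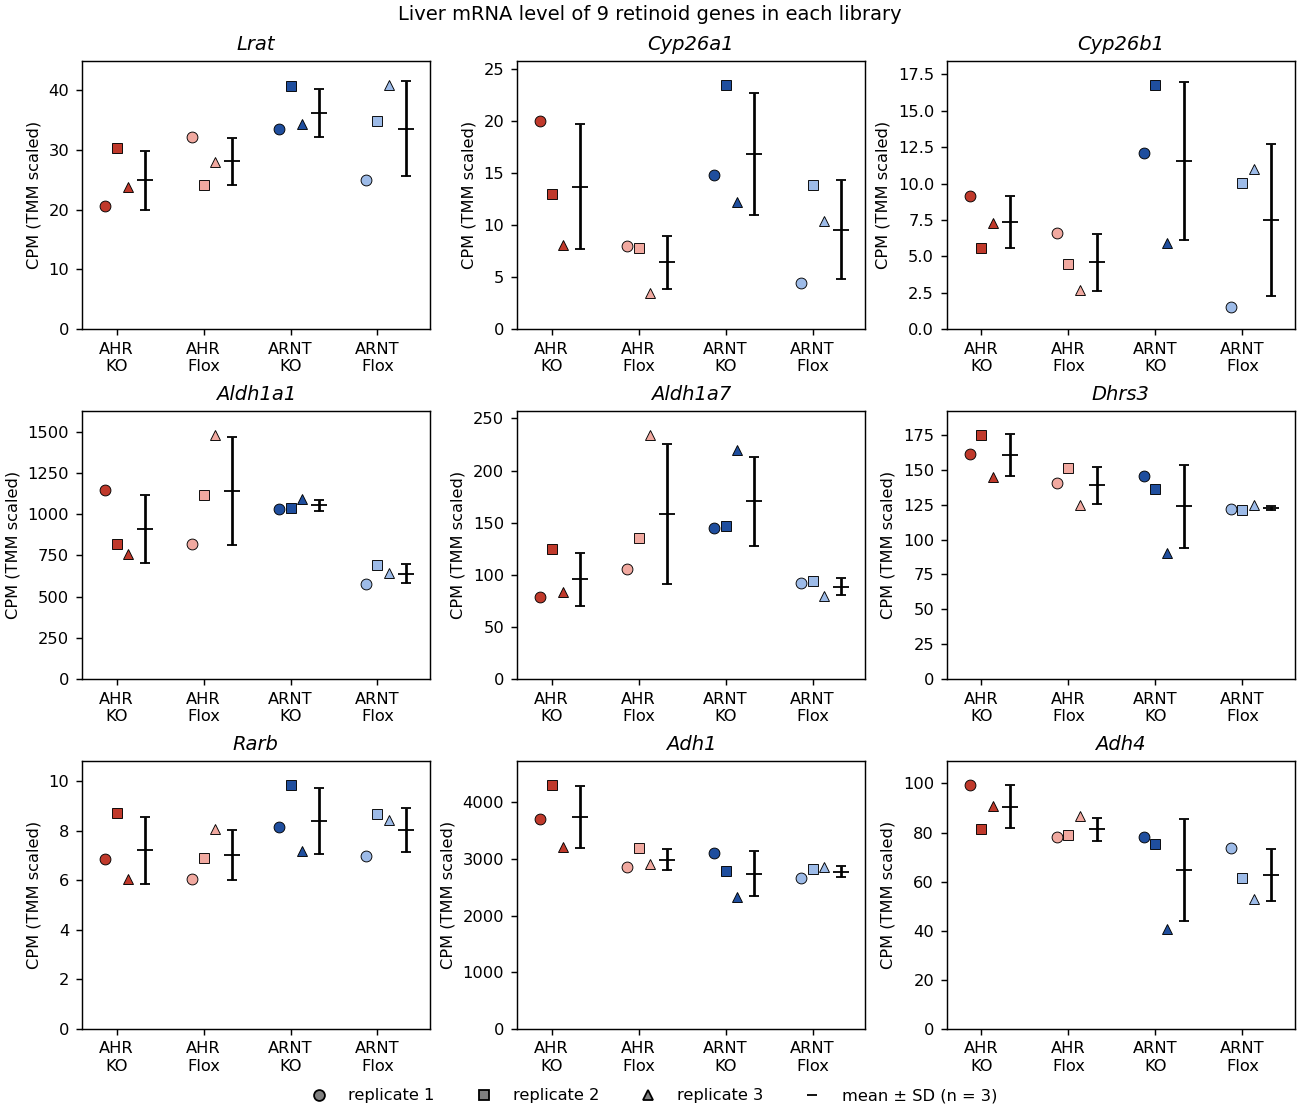
Level of each of the 9 retinoid genes in CPM (vertical axis, TMM scaled, from 0) in AHR KO, AHR Flox, ARNT KO and ARNT Flox; each point is 1 library, and the bar beside them is the mean ± SD of 3. Aldh1a1 in ARNT Flox lies below the other 9 libraries, and Cyp26b1 in ARNT Flox ranges from 1.52 to 11.02 CPM.

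None of the 9 genes passed the test in either knockout. In AHR KO against AHR Flox, edgeR called 0 of 9 at an adjusted p under 0.05, where 0.0788% of all genes tested were called. DESeq2 and limma-voom also called 0. By edgeR 2 of the 9, Aldh1a7 and Cyp26a1, had an unadjusted p under 0.05, as had 1664 of the 13968 genes tested. In 2 of the 9, Cyp26a1 and Adh1, all AHR KO libraries were above all AHR Flox libraries, and in 0 were they all below; over all genes these shares were 11.7% and 9.46%. In ARNT KO against ARNT Flox, edgeR, DESeq2 and limma-voom again called 0 of 9, against 0.0573% of all genes by edgeR. Aldh1a1 and Aldh1a7 had an unadjusted p under 0.05 there, as had 822 of the 13968 genes tested. Aldh1a1 and Aldh1a7 were also the 2 whose ARNT KO libraries were all above those of ARNT Flox, and in 0 were they all below, against 5.94% and 4.9% of all genes. The median log2 change of the 9 was 0.15 in AHR KO and 0.11 in ARNT KO, against 0.01 for all genes in both.

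The retinal dehydrogenase pair gave the widest gap between the knockouts in change against control, not in level. The difference between the effects (ARNT KO against its control, minus AHR KO against its control) was called by edgeR in 0 of 9, against 0.043% of all genes. In 2 of 9 its unadjusted p was under 0.05, as in 1328 of the 13968 genes tested. Those 2 were Aldh1a1 and Aldh1a7, which DESeq2 called, where it called 1.08% of all genes, and limma-voom called 0. Between the control lines, ARNT Flox against AHR Flox, edgeR called 0 of 9, against 0.329% of all genes (46 genes, or 23 with the replicate number as a block). Again Aldh1a1 and Aldh1a7 had an unadjusted p under 0.05, as had 2774 of the 13968 genes tested, a like share. DESeq2 called Aldh1a1 there, against 4.18% of all genes, and so did edgeR without ARNT KO replicate 3, against 10.9%; limma-voom called 0. All ARNT Flox libraries lay below all AHR Flox libraries in 5 of 9, namely Aldh1a1, Aldh1a7, Dhrs3, Adh1 and Adh4, and above in 0, against 17.7% and 18.1% of all genes. For Adh1 and Dhrs3 the highest ARNT Flox library was nearly level with the lowest AHR Flox library. Their log2 changes were -0.10 and -0.18 (edgeR adjusted p = 0.733 and 0.529).

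**Figure D2:**
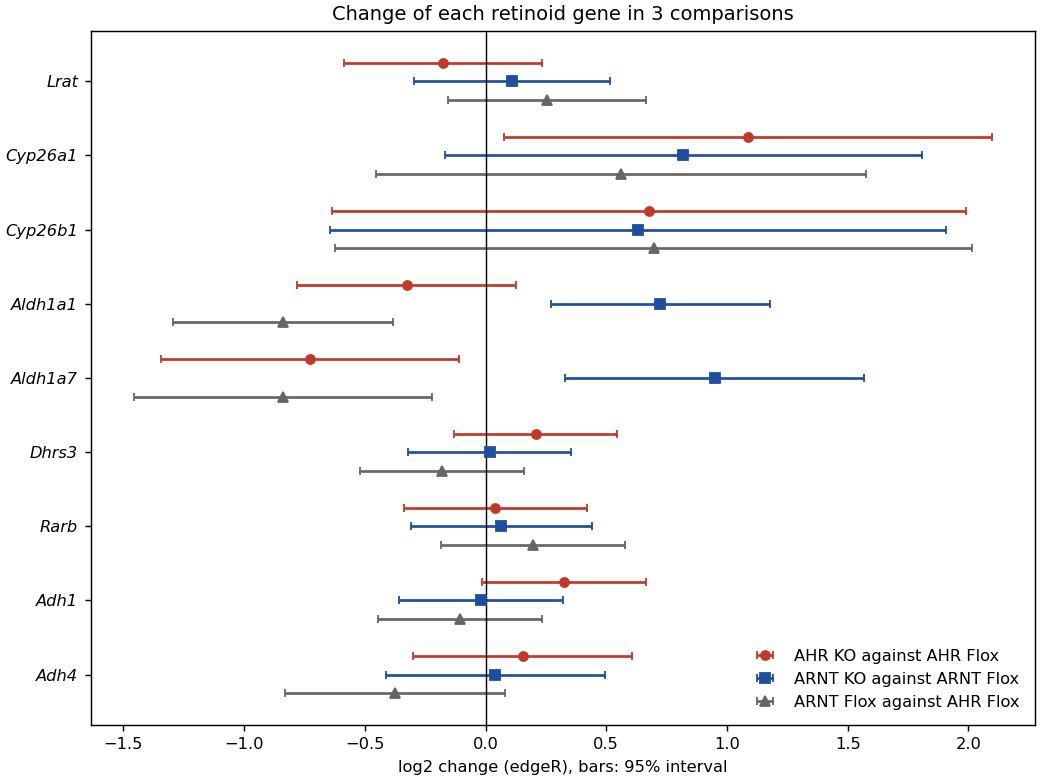
Log2 change of each retinoid gene (horizontal axis) with its 95% interval for each knockout set against its own control, and for ARNT Flox against AHR Flox. The Aldh1a1 and Aldh1a7 points of ARNT KO lie right of 0, at 0.72 and 0.95, while those of AHR KO and of ARNT Flox against AHR Flox lie left of 0.

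Lrat (lecithin retinol acyltransferase, the storage enzyme; chromosome 3, 82892582 to 82903974, minus strand, mm10) had 20.7, 30.3 and 23.7 CPM in AHR KO, against 32.1, 24.2 and 28.0 CPM in AHR Flox. It had 33.5, 40.8 and 34.3 CPM in ARNT KO, against 25.04, 34.9 and 40.8 CPM in ARNT Flox. The groups overlapped in both pairs. The log2 change was -0.17 ± 0.19 (SE) in AHR KO (95% interval -0.58 to 0.24, adjusted p = 0.778) and 0.11 ± 0.19 in ARNT KO (interval -0.30 to 0.52, adjusted p = 0.999). Lrat averaged 36.2 ± 3.97 CPM in ARNT KO and 33.6 ± 7.96 CPM in ARNT Flox, above 24.9 ± 4.90 CPM in AHR KO and 28.1 ± 3.98 CPM in AHR Flox (SD, n = 3 each). Both ARNT groups thus stood above both AHR groups in mean, but neighbours in that order did not differ beyond their spread.

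Because Lrat is mainly a stellate cell transcript, the 16 stellate cell markers were read beside it, all of them measured and none at 0. Their summed level was 456 to 632 CPM in AHR KO and 513 to 657 CPM in AHR Flox. It was 589 to 842 CPM in ARNT KO and 684 to 840 CPM in ARNT Flox. Of the 16, 14 had a positive log2 change in ARNT Flox against AHR Flox (median 0.33, 0 called by edgeR or limma-voom). By edgeR 7 of them had an unadjusted p under 0.05, as had 2774 of the 13968 genes tested. DESeq2 called 1, Hhip, where it called 4.18% of all genes. In that comparison 9 of 9 endothelial, 7 of 8 Kupffer cell and 10 of 10 lymphocyte markers also had a positive change. Of 10 hepatocyte markers 9 had a negative one. Among the zoned hepatocyte markers tested, 9 of 13 pericentral and 7 of 9 periportal ones had a positive change. Over all genes tested, 6973 changes were positive and 6995 negative. The log2 change of Lrat in that comparison was 0.25 ± 0.19 (adjusted p = 0.460). In whole liver, fewer cells of a type and less RNA per cell cannot be told apart.

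Adh1 encodes the main cytosolic alcohol dehydrogenase of liver, which oxidises retinol as well as ethanol (chromosome 3, 138277585 to 138290698, plus strand). It had 3712, 4308 and 3215 CPM in AHR KO, against 2853, 3194 and 2911 CPM in AHR Flox. The lowest AHR KO library lay just above the highest AHR Flox library, and the log2 change was 0.33 ± 0.15 (adjusted p = 0.433, 95% interval -0.01 to 0.67). In ARNT KO it had 3113, 2779.6 and 2333 CPM, against 2661, 2820.0 and 2852 CPM in ARNT Flox, a log2 change of -0.02 ± 0.15 (interval -0.36 to 0.32, adjusted p = 1.00). An antisense gene, Gm16559, overlaps Adh1 exons, and the strand setting of the count was not stated in the sources at hand.

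Adh4, a second alcohol dehydrogenase with activity on retinol (chromosome 3, 138415456 to 138432683, plus strand), had 99.4, 81.5 and 90.9 CPM in AHR KO, against 78.2, 79.2 and 86.8 CPM in AHR Flox. The groups overlapped, with a log2 change of 0.15 ± 0.21 (adjusted p = 0.832). It had 78.0, 75.2 and 40.7 CPM in ARNT KO, against 73.8, 61.6 and 52.8 CPM in ARNT Flox. The lowest of these was ARNT KO replicate 3; the log2 change was 0.04 ± 0.21 (adjusted p = 1.00) with that library and 0.29 ± 0.13 (adjusted p = 0.2798) when it was dropped. Adh4 was lower in every ARNT Flox library than in any AHR Flox library (log2 change -0.37 ± 0.21, adjusted p = 0.333). Counts of Adh1 were 33.5 to 57.3 times those of Adh4 in the 12 libraries.

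Dhrs3 encodes a reductase that returns retinaldehyde to retinol and so opposes the alcohol dehydrogenases (chromosome 4, 144892534 to 144928209, plus strand). It had 162, 175 and 145 CPM in AHR KO, against 140.4, 152 and 125 CPM in AHR Flox, a log2 change of 0.21 ± 0.15 (adjusted p = 0.649). It had 146, 136 and 90.1 CPM in ARNT KO, against 122, 121 and 125 CPM in ARNT Flox. ARNT KO replicate 3 was again the lowest library, and the other ARNT KO libraries were above all 3 of ARNT Flox. The change was 0.02 ± 0.15 on the log2 scale (adjusted p = 1.00), and 0.21 ± 0.10 (adjusted p = 0.331) without that library.

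Aldh1a1 (chromosome 19, 20492583 to 20643463, plus strand) encodes a cytosolic retinaldehyde dehydrogenase, the main such transcript of adult liver. Aldh1a7 (chromosome 19, 20692953 to 20727556, minus strand) is its rodent paralog beside it on the chromosome, known for little activity on retinaldehyde. The promoter windows of the pair are shown because their proximal parts are near copies. Of the 9 genes, these 2 also had the largest difference between the knockouts in log2 change against control. Both are RefSeq windows on GRCm38.p6, the mm10 assembly, from 250 bases before to 50 bases after a start site, 5′ to 3′ on the gene's strand; the Aldh1a1 window is that of its second annotated start, at chr19:20601718-20602017 (plus), and the Aldh1a7 window is at chr19:20727507-20727806 (minus). Capitals mark the longest run the 2 windows share.
Aldh1a1: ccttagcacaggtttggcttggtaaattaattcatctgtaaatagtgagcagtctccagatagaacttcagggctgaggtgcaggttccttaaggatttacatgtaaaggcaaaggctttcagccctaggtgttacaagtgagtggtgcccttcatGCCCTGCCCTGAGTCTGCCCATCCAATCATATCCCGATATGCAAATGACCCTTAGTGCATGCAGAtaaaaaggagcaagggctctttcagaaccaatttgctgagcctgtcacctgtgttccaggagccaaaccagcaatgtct
Aldh1a7: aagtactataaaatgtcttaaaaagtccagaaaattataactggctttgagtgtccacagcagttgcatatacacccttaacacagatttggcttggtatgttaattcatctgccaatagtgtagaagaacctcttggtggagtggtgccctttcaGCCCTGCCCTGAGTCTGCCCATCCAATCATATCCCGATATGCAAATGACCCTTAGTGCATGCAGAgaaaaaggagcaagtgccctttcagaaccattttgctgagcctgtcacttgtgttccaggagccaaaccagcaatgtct
The shared run was 65 bases long and lay at positions -94 to -30 from the start in both. The windows were identical at 70.8% of 315 aligned positions, and at 94.7% of the last 150 bases. The transcripts were not aligned, and were compared only by exact windows of 50 bases, a different measure from aligned identity. Of these, 151 occurred in both genes, which is 3.06% of those of Aldh1a1 and 7.49% of those of Aldh1a7. Over that small part of their length reads of one could be counted for the other.

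Aldh1a1 had 1029, 1039.8 and 1091 CPM in ARNT KO, against 578, 693 and 642 CPM in ARNT Flox. All 3 ARNT KO libraries were above all 3 ARNT Flox libraries, and both groups were tight. The level was 1.65-fold higher in ARNT KO, with a log2 change of 0.72 ± 0.21 (95% interval 0.27 to 1.18, unadjusted p = 0.00478, adjusted p = 0.569), and 0.70 ± 0.22 without ARNT KO replicate 3. In AHR KO it had 1146, 819 and 761 CPM, against 822, 1118 and 1479.6 CPM in AHR Flox, with overlap and a log2 change of -0.33 ± 0.21 (interval -0.78 to 0.12, adjusted p = 0.579).

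Aldh1a7 had 145, 147 and 219.9 CPM in ARNT KO, against 92.2, 93.8 and 79.2 CPM in ARNT Flox. The groups did not overlap, and the level was 1.93-fold higher in ARNT KO (log2 change 0.95 ± 0.28, 95% interval 0.33 to 1.57, unadjusted p = 0.00608, adjusted p = 0.583). Without ARNT KO replicate 3, its highest library, the log2 change was 0.73 ± 0.28 (adjusted p = 0.234). In AHR KO it had 78.2, 125 and 83.5 CPM, against 105, 136 and 234 CPM in AHR Flox. Those groups overlapped, and the log2 change was -0.73 ± 0.28 (interval -1.34 to -0.11, unadjusted p = 0.0250, adjusted p = 0.333). AHR Flox replicate 3 had the highest level of both genes in all 12 libraries.

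The difference between the effects was 1.05 ± 0.29 log2 units for Aldh1a1 (unadjusted p = 0.00398, adjusted p = 0.301) and 1.67 ± 0.40 for Aldh1a7 (unadjusted p = 0.00138, adjusted p = 0.230). DESeq2 gave adjusted p = 0.0387 for Aldh1a1 and 0.00609 for Aldh1a7. Without ARNT KO replicate 3 the edgeR differences were 1.03 ± 0.30 for Aldh1a1 and 1.46 ± 0.38 for Aldh1a7 (adjusted p = 0.119 and 0.0864). These differences use both control lines, which themselves lay apart. Aldh1a1 averaged 638 ± 57.5 CPM in ARNT Flox and 1139.8 ± 329 CPM in AHR Flox (SD, n = 3 each), 1.79-fold lower in ARNT Flox (log2 change -0.84 ± 0.21, adjusted p = 0.105). Aldh1a7 averaged 88.4 ± 8.001 CPM in ARNT Flox and 158 ± 67.3 CPM in AHR Flox (log2 change -0.84 ± 0.28, adjusted p = 0.168). For Aldh1a1 the call between control lines turned on the setting: adjusted p was 0.0263 without ARNT KO replicate 3, 0.0271 with only the 2 control groups in the fit and 0.00484 by DESeq2. The 3 ARNT Flox libraries were the lowest of all 12 for Aldh1a1, whose means in ARNT KO (1053 ± 32.97 CPM), AHR KO (909 ± 208 CPM) and AHR Flox did not differ beyond their spread.

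The 2 genes did not move in full proportion. The ratio of Aldh1a1 to Aldh1a7 counts ran from 4.96 in ARNT KO replicate 3 to 14.6 in AHR KO replicate 1, and lay between them in the other 10 libraries. Across the 12 libraries their log2 levels correlated at r = 0.713 (permutation adjusted p = 0.0822 over the 36 pairs of the 9 genes; rho = 0.531, adjusted p = 0.284).

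**Figure D3:**
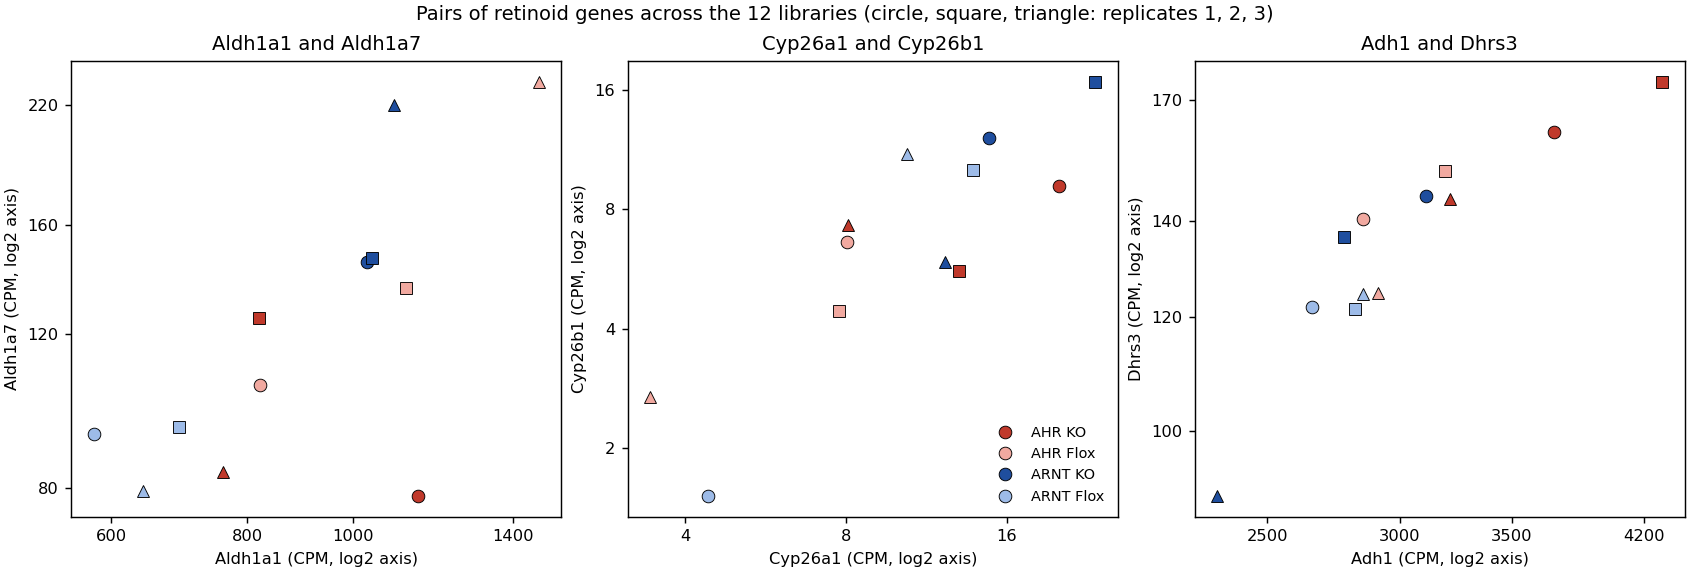
Levels (CPM, both axes log2) of Aldh1a1 and Aldh1a7, Cyp26a1 and Cyp26b1, and Adh1 and Dhrs3, with 1 point per library coloured by group. Dhrs3 and Adh1 lie closest to a line (r = 0.904 over 12 libraries), and the ARNT Flox points are at the low end for Aldh1a1 and Aldh1a7.

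Cyp26a1 and Rarb are classical targets of retinoic acid receptors, and their promoter windows are shown because both hold the repeat these receptors bind. The repeat searched, called DR5, is a direct repeat of a half-site with 5 bases between the copies, on either strand. Each half-site could be AGGTCA, the consensus, or a variant of it: AGTTCA in the first form, GGGTCA in the next and GGTTCA in the last. The windows are from RefSeq on GRCm38.p6, at chr19:37697558-37697857 (plus) for Cyp26a1 and chr14:16575427-16575726 (minus) for Rarb, 5′ to 3′ on the gene's strand. Capitals mark the DR5 match and, near the start of the Rarb window, the CACGC that is the AHR core motif GCGTG on the opposite strand.
Cyp26a1: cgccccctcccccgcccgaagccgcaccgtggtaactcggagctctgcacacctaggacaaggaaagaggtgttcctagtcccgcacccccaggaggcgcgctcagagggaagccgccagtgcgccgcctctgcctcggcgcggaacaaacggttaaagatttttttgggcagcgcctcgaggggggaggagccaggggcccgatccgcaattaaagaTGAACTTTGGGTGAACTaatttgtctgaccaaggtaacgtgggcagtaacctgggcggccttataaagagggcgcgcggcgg
Rarb: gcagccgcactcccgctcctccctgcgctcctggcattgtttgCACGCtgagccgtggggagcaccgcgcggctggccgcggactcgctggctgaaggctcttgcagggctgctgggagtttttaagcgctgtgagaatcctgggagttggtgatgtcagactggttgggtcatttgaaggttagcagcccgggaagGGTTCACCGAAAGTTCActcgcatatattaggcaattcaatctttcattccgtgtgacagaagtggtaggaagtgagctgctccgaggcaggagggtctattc
Counted from the start site of the window, the match lay at -32 to -16 on the opposite strand in Cyp26a1. It lay at -53 to -37 on the same strand in Rarb. Both matches lie inside the annotated genes. The Cyp26a1 window spans the gene's first base, 37697738, and the Rarb window is at an internal start, far from the gene's 5′ end at 17082331. Of 32851 promoter windows, 32 (0.0974%) held such a repeat, and of the 9 genes, only Cyp26a1 and Rarb did in any of their 12 windows. Repeats with 1 or 2 bases between the half-sites were in 0.222% and 0.268% of promoters and in 0 of the 9 genes. GCGTG, a short motif, was in 32.4% of promoters and, of the 9 genes, in Lrat and Rarb. The longer form TNGCGTG was in 5.07% of promoters and in 0 of the 9. A match is a string of letters and not a measured site.

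Cyp26a1 encodes the main retinoic acid hydroxylase of liver (chromosome 19, 37697738 to 37701536, plus strand). It had 20.0, 13.0 and 8.06 CPM in AHR KO, against 8.04, 7.76 and 3.44 CPM in AHR Flox. All AHR KO libraries were above all AHR Flox libraries but by the narrowest of margins. The level was 2.12-fold higher in AHR KO, a log2 change of 1.09 ± 0.46 (95% interval 0.08 to 2.10, unadjusted p = 0.0374, adjusted p = 0.383). In ARNT KO it had 14.8, 23.4 and 12.2 CPM, against 4.41, 13.8 and 10.4 CPM in ARNT Flox. Those groups overlapped, and the log2 change was 0.82 ± 0.45 (interval -0.17 to 1.81, adjusted p = 0.874). Its point estimate was thus positive in both knockouts, and the difference between the effects was -0.27 ± 0.64 (interval -1.67 to 1.14, adjusted p = 0.947). The order of means was 16.8 ± 5.86 CPM in ARNT KO, 13.7 ± 6.00 for AHR KO, 9.53 ± 4.76 for ARNT Flox and 6.41 ± 2.58 in AHR Flox (SD, n = 3 each), with each neighbour within the spread of the next.

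Cyp26b1, a second retinoic acid hydroxylase (chromosome 6, 84571414 to 84593908, minus strand), had 9.17, 5.60 and 7.31 CPM in AHR KO, against 6.61, 4.44 and 2.69 CPM in AHR Flox. It had 12.1, 16.7 and 5.89 CPM in ARNT KO, against 1.52, 10.02 and 11.02 CPM in ARNT Flox. Both pairs overlapped. Within ARNT Flox alone the highest library exceeded the lowest 7.26-fold. The log2 change was 0.68 ± 0.60 in AHR KO (95% interval -0.64 to 1.99, adjusted p = 0.718) and 0.63 ± 0.58 in ARNT KO (interval -0.64 to 1.91, adjusted p = 0.980).

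The CYP26 genes varied together between individual libraries. Over the 12 libraries log2 Cyp26a1 and Cyp26b1 correlated at r = 0.857 (permutation p = 0.00036, adjusted p = 0.00648 over 36 pairs; rho = 0.804, adjusted p = 0.0268). Without the 2 libraries farthest from the median of Cyp26a1 r was 0.691, and on deviations from the group means it was 0.820. ARNT Flox replicate 1, the lowest library for Cyp26b1, was also the second lowest for Cyp26a1, and ARNT KO replicate 2 was the highest for both. The ratio of Cyp26a1 to Cyp26b1 counts ran from 0.943 to 2.90.

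Among all 36 pairs, Dhrs3 and Adh1 were the closest (r = 0.904, permutation p = 7e-05, adjusted p = 0.00252; rho = 0.909, adjusted p = 0.00432). That relation held without the 2 libraries farthest from the median of Dhrs3 (r = 0.859) and on deviations from the group means (r = 0.849). Dhrs3 and Adh4 correlated at r = 0.818 (permutation adjusted p = 0.0222; rho = 0.776, adjusted p = 0.0337), and at 0.674 and 0.682 in those checks. By rank only, Adh1 and Adh4 also passed (rho = 0.846, permutation adjusted p = 0.0191), as did Lrat and Adh4, in opposite directions (rho = -0.797, adjusted p = 0.0268). Their r was 0.668 and -0.636 (permutation adjusted p = 0.116 for each), and 0.385 and -0.311 on deviations from the group means. All these correlations are over libraries that share 4 groups.

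Rarb encodes retinoic acid receptor beta (chromosome 14, 16430839 to 17082331, minus strand). It had 6.86, 8.70 and 6.05 CPM in AHR KO, against 6.06, 6.90 and 8.08 CPM in AHR Flox. It had 8.16, 9.85 and 7.18 CPM in ARNT KO, against 6.996, 8.67 and 8.42 CPM in ARNT Flox. This was the steadiest of the 9 genes, and the groups of both pairs overlapped. The log2 change was 0.04 ± 0.17 in AHR KO (95% interval -0.34 to 0.42, adjusted p = 0.957) and 0.06 ± 0.17 in ARNT KO (interval -0.31 to 0.44, adjusted p = 1.00). Rarb and Cyp26a1 share the DR5 repeat shown above, but their levels were very unlike in spread, 1.63-fold and 6.81-fold from the lowest to the highest library. Exons of Top2b and Gm48162 overlap Rarb on the opposite strand, so part of its low count could come from them.

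The rest of the retinoid pathway was read from a list of 48 symbols for carrier proteins, dehydrogenases, receptors and ester hydrolases, of which 45 were measured and 39 tested. With edgeR and limma-voom, 0 of 39 were called in any of the 4 comparisons. In AHR KO against AHR Flox 24 had a positive and 15 a negative log2 change (median 0.13, 2 at an unadjusted p under 0.05, 0 called by DESeq2). In ARNT KO against ARNT Flox 19 were positive and 20 negative (median -0.01, 1 at an unadjusted p under 0.05, 0 called by DESeq2). In ARNT Flox against AHR Flox 9 had an unadjusted p under 0.05, near the share over all genes (2774 of 13968). DESeq2 called 3 higher there, among them Rarg and Aldh1a3, where it called 4.18% of all genes.

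**Figure D4:**
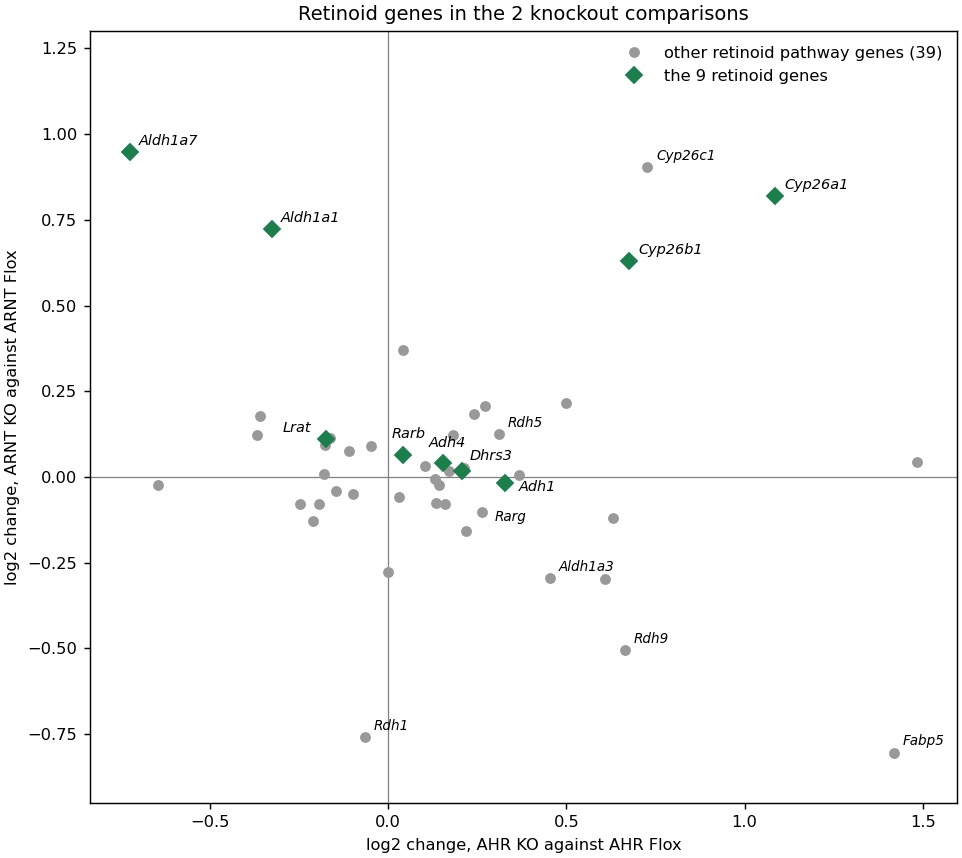
Log2 change in AHR KO against AHR Flox (horizontal axis) and in ARNT KO against ARNT Flox (vertical axis) of the 9 retinoid genes (diamonds) and 39 other retinoid pathway genes (grey circles). Aldh1a7 and Aldh1a1 sit at the upper left, Cyp26a1 and Cyp26b1 at the upper right, and Rdh9 at the lower right.

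Fabp5, a fatty acid-binding protein that also carries retinoic acid, had 41.3, 30.2 and 42.1 CPM in ARNT Flox, against 7.66, 12.4 and 9.15 CPM in AHR Flox (log2 change 1.95 ± 0.73, adjusted p = 0.192). With only the 2 control groups in the fit, which called 1615 of all genes, adjusted p was 0.000968 for Fabp5, 0.0193 for Rarg and 0.0234 for Aldh1a3.

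Rarg, retinoic acid receptor gamma, had 12.1, 10.5 and 10.6 CPM in ARNT Flox, against 7.94, 7.79 and 8.08 CPM in AHR Flox, and had the smallest p of the list there (log2 change 0.48 ± 0.12, adjusted p = 0.0998, and 0.0254 on dropping ARNT KO replicate 3). Aldh1a3, another retinaldehyde dehydrogenase, stood at 0.273 to 1.40 CPM over all libraries and was higher in every ARNT Flox library than in any AHR Flox library (log2 change 1.65 ± 0.42, adjusted p = 0.110, and 0.0332 on dropping ARNT KO replicate 3). Rdh9, a retinol dehydrogenase family member, had 354, 194 and 298 CPM in AHR KO, against 170.2, 182 and 182 CPM in AHR Flox, while ARNT KO had 197, 199.8 and 120.1 CPM, against 266, 237 and 229.9 CPM in ARNT Flox. Its libraries did not overlap in either pair and lay on opposite sides (log2 change 0.66 ± 0.22, adjusted p = 0.247, in AHR KO and -0.50 ± 0.22, adjusted p = 0.815, in ARNT KO). Since 68.3% of the 50-base windows of Rdh9 also occur in other genes, mostly Rdh16, Rdh16f1 and Rdh19, its counts are uncertain.

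Other named pathway genes with a small p in one comparison were Rdh5 (log2 change 0.31 ± 0.15, adjusted p = 0.425, in AHR KO), Rdh1 (-0.76 ± 0.39, adjusted p = 0.861, in ARNT KO) and Cyp26c1 (0.90 ± 0.47, adjusted p = 0.862, in ARNT KO). Rdh1 and Cyp26c1 stayed at or under 1.18 CPM in all libraries. Several retinoid enzymes are zoned along the liver lobule, so 13 pericentral and 10 periportal hepatocyte markers were read too. The pericentral sum was 18786 to 27590.2 CPM in AHR KO and 15643 to 17740.2 CPM in AHR Flox. Its largest part there was Cyp2e1, at 17766, 11757 and 14412 CPM in AHR KO, against 9583, 10157 and 8573 CPM in AHR Flox. Of the 13 markers, 7 had a positive and 6 a negative log2 change in AHR KO. By edgeR 0 were called there and 1 had an unadjusted p under 0.05, as had 1664 of the 13968 genes tested. The sum was 16047, 16599 and, in replicate 3, 11407 CPM in ARNT KO, against 16136 to 16788 CPM in ARNT Flox. The ARNT groups thus overlapped both with replicate 3 and without it. All 13 pericentral markers had a negative log2 change in ARNT KO (median -0.27; 0 called by edgeR, 5 at an unadjusted p under 0.05, as had 822 of the 13968 genes tested, and Slc1a2 called by DESeq2). Without ARNT KO replicate 3, edgeR called 2 of them lower in ARNT KO, Rhbg and Cyp1a2, where it called 1.37% of all genes. The periportal sum was 5109 to 8403 CPM in AHR KO and 5690.0 to 6795 CPM in AHR Flox, and it was 5466 to 6216 CPM in ARNT KO and 4425 to 8165 CPM in ARNT Flox. Their part in the values of the retinoid genes was not tested.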

How the data were processed

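Poly-A RNA from 12 livers was sequenced per the labels, and the authors deposited 1 table of raw counts per gene, whole numbers in 12 columns. Tools named in the submitters' processing notes are DESeq2 1.20.0 and R 3.5.1, STAR in versions 2.5.4b and 2.6.0c, and bcl2fastq 2.20, with the build mm10; which tool counted, whether by strand and on which annotation, the sources used here do not say. Because no molecular identifiers are stated, PCR copies count as separate reads, and count limits cover counting error only. The labels say that 3 mice of each genotype were used.

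The test was edgeR 4.0.16 under R 4.3.3, with the 12 libraries in 1 model of 4 group means. Genes were kept by filterByExpr (minimum count 10, minimum total 15), libraries were scaled with TMM, and the two-sided quasi-likelihood F test was adjusted over 13968 genes by the Benjamini-Hochberg method, with calls at 0.05. Every adjusted p is from this test unless another tool is named. CPM are TMM scaled, apart from the limit for a count of 0. Likeness and the correlations on deviations from the group means used log2 CPM with a prior count of 2. The other correlations of pairs used log2 CPM without a prior count. The scripts were tested on simulated data. Levels per kb used the annotated exons of GENCODE M21, and 50-base windows its transcripts. Promoters are RefSeq's on GRCm38.p6; all 9 genes matched.

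The members, the pathway list and the 9 cell type marker lists were chosen with earlier results of these data known. The genes named were the 9 members, Ahr and Arnt, pathway genes called by edgeR or among the 3 smallest p of a comparison, and the 2 genes most like each member; results for some genes that the rule names are withheld from this text. Tgm2, Adh7, Adh5, Lpl and the cell type markers named singly were chosen after their values were seen. Alternatives were DESeq2 1.42.0, limma-voom (limma 3.58.1), 2 scalings, 2 filters, only the groups compared, a block for the replicate number, and each library left out. The labels pair no samples. Residuals of same-numbered libraries correlated at 0.327, 0.153 and 0.101 between the control groups. They correlated at 0.0138, 0.0496 and 0.141 between AHR KO and AHR Flox, and at -0.0370, -0.00755 and -0.0123 between ARNT KO and ARNT Flox. Only between the control groups did every pair exceed a limit of 0.1. Whether the numbers pair any mice was not tested.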

Additional observations from a re-analysis of the deposited data

Results flagged for a closer look

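Arnt, the gene deleted in the ARNT line, differed between the 2 knockouts in its change. The ARNT effect minus the AHR effect was -1.30 on the log2 scale (adjusted p = 0.0301 by edgeR's quasi-likelihood test). On leaving out 1 library it missed the threshold for 8 of the 12 libraries, with adjusted p of 0.0781 to 0.175.

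Rdh9 moved to opposite sides in the 2 knockouts, with all AHR KO libraries above those of AHR Flox and all ARNT KO libraries below those of ARNT Flox. The difference was -1.17 ± 0.31 on the log2 scale and did not pass edgeR's test (adjusted p = 0.288), while DESeq2 gave adjusted p = 0.0333. Without ARNT KO replicate 3 it was -0.96 ± 0.25 (edgeR adjusted p = 0.0885).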

How the results depend on the processing

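With 3 libraries a group and a common biological coefficient of variation of 17.5%, small changes of the scarce genes could not be resolved. The number of retinoid genes called stayed at 0 in both knockout comparisons under every alternative run. In the difference between effects it was 2 with DESeq2. In ARNT Flox against AHR Flox it was 1 with DESeq2, 1 with only the groups compared, and 0 to 1 on leaving out each library; the 1 was without ARNT KO replicate 3, and in each case the gene was Aldh1a1. The causes were not tested. Fitting only the groups compared gave no value for the difference, which uses all 4. With the replicate number as a block, 0 retinoid genes were called in any comparison, and Dhrs3 in ARNT KO was at -0.00806 log2 units (-0.0104 with limma-voom), on the other side of 0; with limma-voom Cyp26b1 in the difference was 0.30. The block changed the number of all genes called between control lines to 23, against 46.

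Leaving out each library turned the sign of small changes. In AHR KO the log2 change ran from -0.13 to 0.15 for Rarb and from -0.15 to 0.0144 for Rdh1. In ARNT KO it ran from -0.0636 to 0.27 for Lrat, -0.11 to 0.21 for Dhrs3, -0.0622 to 0.17 for Rarb, -0.12 to 0.0882 for Adh1, -0.11 to 0.29 for Adh4 and -0.23 to 0.0491 for Ahr. In the difference it ran from -0.62 to 0.12 for Cyp26a1, -0.54 to 0.33 for Cyp26b1, -0.31 to 0.00268 for Dhrs3, -0.10 to 0.19 for Rarb, -0.26 to 0.14 for Adh4 and -0.20 to 0.66 for Cyp26c1. In ARNT Flox against AHR Flox it ran from -0.19 to 0.0596 for Rdh5 and -0.0258 to 0.66 for Cyp26c1.

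Numbers of all genes called moved more. AHR KO had 11, with 5 to 136 on leaving out a library and 10 to 359 otherwise. ARNT KO had 8, with 1 to 193 and 1 to 56. The difference had 6, with 1 to 194 and 4 to 148. The control lines had 46, with 12 to 1532 and 23 to 1615. The fall of Arnt in ARNT KO had adjusted p = 0.0747 with only the groups compared and 0.0557 without ARNT Flox replicate 2.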

Other observations

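The genes most like each retinoid gene over the 12 libraries, by Pearson's r of log2 CPM, were ranked among all genes tested and are given as a description. Dhrs3 was most like Rnf167 (r = 0.988) and Luc7l2 (0.976), and Adh1 most like Hacl1 (0.976), a peroxisomal lyase of fatty acid alpha-oxidation, and Btd (0.961), the biotin-recycling enzyme biotinidase. Adh4 was most like BC049762 (0.973) and Gm4952 (0.970). Aldh1a1 was most like Mfsd8 (0.948) and Nup54 (0.8995), and Aldh1a7 most like Hsd17b12 (0.936), a fatty acid elongation enzyme. The scarcer genes had looser matches: Cyp26b1 with Prelid2 (0.861) and 6530401N04Rik (0.810), Rarb with Filip1 (0.852) and Ugt1a5 (0.801), Lrat with Clec4d (0.842) and C1qtnf2 (0.836), and Cyp26a1 with Uck2 (0.8395) and 1700054N08Rik (0.833). Aldh1a1 and Aldh1a7 thus had different nearest genes.

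In ARNT Flox against AHR Flox without ARNT KO replicate 3, edgeR called 7 of the 39 other retinoid pathway genes, 5 higher and 2 lower, among them Rarg, Tgm2, Adh7, Adh5, Aldh1a3 and Lpl; over all genes 10.9% were called. Those of them named for the first time here are a transglutaminase induced by retinoic acid (Tgm2), 2 further alcohol dehydrogenases (Adh7 and Adh5) and lipoprotein lipase (Lpl).

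Of the cell types not yet described, 8 Kupffer cell markers summed to 395 to 462 CPM in AHR KO and 358 to 538 CPM in AHR Flox, and to 467 to 763 CPM in ARNT KO and 555 to 574 CPM in ARNT Flox. The 9 endothelial markers summed to 245 to 315 CPM in AHR KO and 275 to 323 CPM in AHR Flox, and to 320 to 353 CPM in ARNT KO and 322 to 380.1 CPM in ARNT Flox. The 10 lymphocyte markers summed to 11.04 to 13.1 CPM in AHR KO and 7.45 to 10.7 CPM in AHR Flox, and to 11.8 to 14.6 CPM in ARNT KO and 10.6 to 16.2 CPM in ARNT Flox. Of 5 erythroid genes 4 were at 0 in all libraries, and the remaining one, Alas2, had 13.4 to 16.9 CPM in AHR KO, 18.4 to 27.8 CPM in AHR Flox livers, 19.2 to 29.6 CPM in ARNT KO and 19.2 to 25.2 CPM in ARNT Flox. With all 12 libraries, edgeR and limma-voom called 0 members of the 9 marker lists in either knockout comparison. By edgeR 0 to 5 members a list had an unadjusted p under 0.05. Of the 13968 genes tested, 1664 in AHR KO and 822 in ARNT KO had such a p. DESeq2 called Alb and Apoa1 in AHR KO and Slc1a2 and Sult5a1 in ARNT KO. Settings that left out no single library, DESeq2 included, called 10 to 359 of all genes in AHR KO and 1 to 56 in ARNT KO. Without ARNT KO replicate 3, edgeR called Alb and Cyp1a2 lower in AHR KO, against 0.966% of all genes, beside the 2 pericentral markers called in ARNT KO. In ARNT Flox against AHR Flox that fit, which called 10.9% of all genes, called higher 4 Kupffer cell markers (Cd68, Csf1r, Cd5l and Clec4f), 3 lymphocyte markers (Nkg7, Cd3g and Cd3e), 2 pericentral markers (Rhbg and Cyp1a2) and the stellate cell marker Hhip, and called Serpina1c, a hepatocyte marker, lower.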
